A study of Mus musculus with 16 samples.

Results

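The genes described here mark Schwann cell precursors, the glial progenitors that travel along growing nerves, and melanoblasts, the progenitors of pigment cells. The set consists of Sox10, Foxd3, Erbb3, Fabp7, Dct, Pmel, Mitf and Kit, which were found by symbol in a table of gene expression deposited for mouse facial tissue. All 8 were present, each in 1 row, among 30286 distinct gene symbols. Both cell types descend from the neural crest, and part of the melanoblasts arise from Schwann cell precursors. Sox10 keeps crest-derived cells in the glial and pigment lineages, Erbb3 receives the neuregulin signal from axons, and Mitf commits cells to the pigment fate. Melanoblasts need the receptor Kit as they move through the mesenchyme and enter the surface ectoderm, while Schwann cell precursors stay with the nerves in the mesenchyme.

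The tissue came from the facial prominences of C57BL/6 embryos at embryonic day 12, with ectoderm and mesenchyme taken apart by surgery. Both layers were taken from wild-type (WT) embryos and from Esrp1-/- (KO) embryos, which gave 4 groups. Esrp1 encodes an RNA-binding protein that sets epithelial splicing, and no group carried another allele or agent. Every group was sequenced as 4 libraries (16 in total), each made from 6 to 7 pooled embryos. Values are TPM, in which reads are scaled by transcript length and by the library's total, so that levels of different genes can be compared within a group. The table gives 1 value per group: no difference below has a replicate check, no error can be given, the depth behind a value is unknown, and "higher" and "lower" describe the deposited values. The column sums ranged from 916266 to 975762 TPM. The targeted gene, Esrp1, had 170 TPM in WT and 62.9 TPM in KO ectoderm, and 1.01 and 1.0 TPM in the mesenchyme of both genotypes.

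Markers of each layer also had values in the other layer, and how far the layers were mixed was not tested. The 8 markers of surface epithelium added to 2591 TPM in WT ectoderm and 15.3 in WT mesenchyme, and 10 mesenchyme markers to 98.8 and 2482 TPM. In KO ectoderm the mesenchyme markers added to 351 TPM, and all 10 were at least 1.5-fold higher than in WT ectoderm. In tissue samples a smaller number of cells of a type and less RNA per cell cannot be told apart.

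Dct and Fabp7 are shown by the sequence before their start because they differed in layer: Dct, an enzyme of melanin synthesis, was higher in ectoderm, and Fabp7, a fatty acid binding protein of immature glia, was higher in mesenchyme. Each run is the 250 bases before the RefSeq start on GRCm38.p6, 5′ to 3′ on the gene's strand (Dct at chr14:118052247-118052496, minus strand, and Fabp7 at chr10:57784673-57784922, plus strand). The gene coordinates given below are those of GENCODE M21, in which Fabp7 begins at 57784881, inside its RefSeq window. Capitals mark matches on either strand to CATGTG, the core of the box bound by Mitf, to the E-box CACGTG, and to the Sox motifs ACAAAG and ACAATG, of which none overlap here.
Dct: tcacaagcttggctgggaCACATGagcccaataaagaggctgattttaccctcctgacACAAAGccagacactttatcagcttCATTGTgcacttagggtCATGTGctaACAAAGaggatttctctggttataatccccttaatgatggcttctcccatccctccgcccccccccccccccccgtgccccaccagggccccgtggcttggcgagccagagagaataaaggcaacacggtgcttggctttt
Fabp7: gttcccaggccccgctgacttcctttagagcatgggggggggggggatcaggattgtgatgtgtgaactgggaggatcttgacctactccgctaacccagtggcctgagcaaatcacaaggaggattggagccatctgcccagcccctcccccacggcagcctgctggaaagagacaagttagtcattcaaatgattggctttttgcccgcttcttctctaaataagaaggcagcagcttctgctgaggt

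The Dct window held 2 matches to CATGTG, beginning 232 and 150 bases before the start, 2 to ACAAAG, at 192 and 141 bases, and 1 to ACAATG, at 167 bases. The Fabp7 window held no match to any of the 4 motifs. Among 32851 windows of the same length from all genes, 12.3% held CATGTG, 6.02% CACGTG, 16.5% ACAAAG and 10.7% ACAATG. RefSeq windows were found for 5 of the 8 genes, 8 windows in all with alternative starts, and the other matches among them were a single CACGTG before Foxd3. These matches are letters in a window and not evidence of binding.

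The 8 genes did not share a layer. In WT tissue the glial and early crest genes Sox10, Foxd3 and Fabp7 had their higher value in mesenchyme, and Erbb3, Kit and the pigment genes Dct, Pmel and Mitf had theirs in ectoderm. Differences are given as log2 ratios of TPM plus 1, which understate the change of genes with low values, and a gene entered the counts if the compared groups averaged 1 TPM or more. Of the 7 genes that passed this limit in the WT layers, 2 were at least 2-fold higher in mesenchyme (Sox10 and Fabp7), where 12.1% of 14242 genes were. At least 2-fold lower in mesenchyme were 4 (Erbb3, Dct, Pmel and Kit), compared with 6.88% of all genes. Mitf lay within 2-fold, and Foxd3 did not pass. The smallest ratio counted was that of Dct, at -1.11, and the largest not counted that of Mitf, at -0.27. The median of the 7 was -1.11 and that of all genes tested 0.15.

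**Figure D1:**
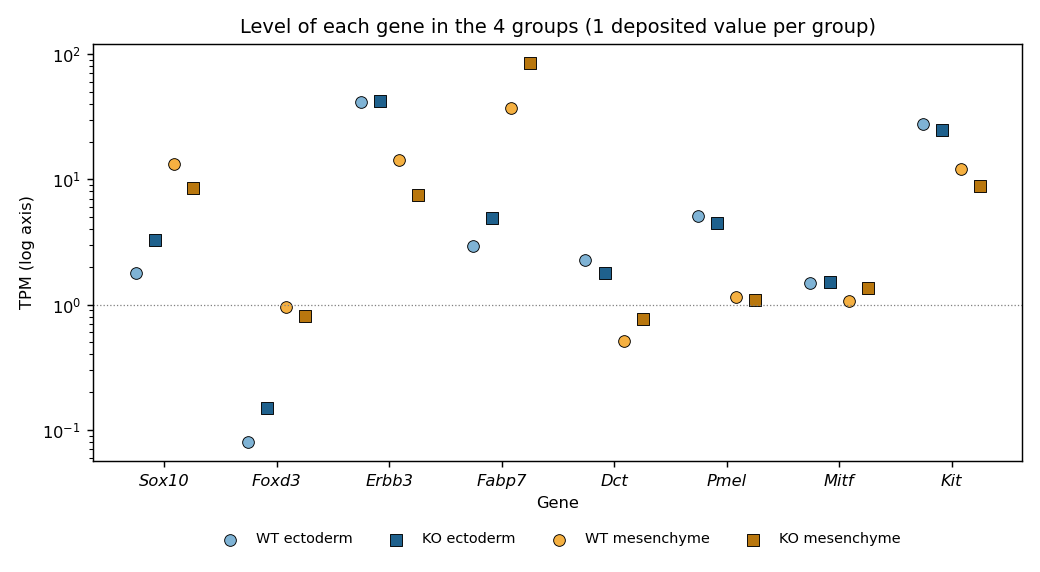
TPM of each of the 8 genes on a log axis in both layers of WT (circles) and KO (squares) tissue, 1 deposited value per point and no error. The orange mesenchyme points lie above the blue ectoderm points for Sox10, Foxd3 and Fabp7 and below them for Erbb3, Dct, Pmel, Mitf and Kit. The dotted line marks 1 TPM.

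Sox10, the transcription factor common to both lineages (chr15:79154908-79165240 on GRCm38, the build also called mm10), had 1.78 TPM in WT and 3.25 TPM in KO ectoderm, against 13.2 TPM in WT and 8.46 TPM in KO mesenchyme. Both mesenchyme values lay above both ectoderm values, and the KO value was the higher of the 2 in ectoderm and the lower in mesenchyme. The log2 ratio between WT layers was 2.35, and 2.93% of genes had a larger one. Foxd3, a forkhead factor of early crest cells (chr4:99656299-99658622), was at 0.08, 0.15, 0.96 and 0.81 TPM in the same order. It stayed below 1 TPM in every group, with the same order of groups as Sox10, and was left out of every count.

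Fabp7 (chr10:57784881-57788450) was the most abundant of the 8 in mesenchyme, with 36.9 TPM for WT and 84.9 TPM for KO. In ectoderm the values were 2.94 TPM for WT and 4.93 TPM for KO, so that the KO value was the higher in each layer. Between the WT layers the log2 ratio was 3.27, and between the KO layers 3.86, where only 3 of 14411 genes tested had a larger ratio towards mesenchyme. Its level relative to Sox10 was 2.80-fold in WT mesenchyme and 10.04-fold in KO mesenchyme, and 1.65-fold and 1.52-fold in WT and KO ectoderm.

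Erbb3, the neuregulin receptor of Schwann cell precursors (chr10:128567523-128589652), had 41.8 TPM in WT and 42.5 TPM in KO ectoderm, against 14.2 TPM in WT and 7.45 TPM in KO mesenchyme. Its WT mesenchyme value was close to that of Sox10, at 1.08 times, while in WT ectoderm it was 23.5 times the Sox10 level. Erbb3 is also expressed by epithelial cells, and the part of each cell type in its level was not tested. The log2 ratio between WT layers was -1.49.

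Kit, the receptor of stem cell factor (chr5:75574916-75656722), was likewise higher in ectoderm, with 27.4 TPM in WT and 24.6 TPM in KO ectoderm, against 12.1 TPM in WT and 8.86 TPM in KO mesenchyme. It was 15.4 times the level of Sox10 in WT ectoderm and 0.919 times in WT mesenchyme. Kit also marks mast cells and blood progenitors. Of the genes of those cells, Fcer1a was at 0 in all 4 groups, Mcpt4 did not exceed 0.02 TPM, and Cpa3 had 0.48 TPM in WT ectoderm and 1.72 TPM in WT mesenchyme. Myb, a factor of blood progenitors and the most abundant of these markers in WT ectoderm, was higher there like Kit, at 7.49 TPM against 4.97 in WT mesenchyme. The part of such cells in the Kit level was not tested. The 7 markers added to 15.4 TPM in WT ectoderm and 105 in WT mesenchyme, and in mesenchyme most of it came from Gata2 (34.5 TPM) and Cd34 (61.6), which vessels also express.

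The 2 pigment genes were low and higher in ectoderm. Pmel, which forms the fibrils of the melanosome (chr10:128704195-128720238), was at 5.11 and 4.49 TPM in WT and KO ectoderm and at 1.16 and 1.09 in WT and KO mesenchyme. Dct (chr14:118012790-118052244) was at 2.27 and 1.80 TPM in ectoderm and 0.51 and 0.77 in mesenchyme. The lowest ectoderm value of each gene lay above its highest mesenchyme value. The ratio of Pmel to Dct was 2.25 and 2.49 in WT and KO ectoderm, and 2.28 and 1.42 in WT and KO mesenchyme. Mitf (chr6:97807052-98021349) was nearly level, at 1.49, 1.51, 1.07 and 1.36 TPM in WT and KO ectoderm and then WT and KO mesenchyme. Its promoters and isoforms, of which 1 belongs to melanocytes, are not separated by a value per gene. The pigment epithelium of the eye shares these genes. Its markers Rpe65 and Rgr did not exceed 0.02 and 0.07 TPM in any group, nor Rlbp1 0.37 TPM. Best1 was at 0.36 and 0.61 TPM in WT and KO ectoderm and at 2.01 and 2.05 in WT and KO mesenchyme. Rdh5, at 9.49 to 13.3 TPM, and Otx2 are not limited to the eye. Otx2 was higher in ectoderm like the pigment genes, at 11.6 and 27.0 TPM in WT and KO against 1.15 and 1.29 in mesenchyme. The 6 markers added to 13.3 to 40.1 TPM, and their part in the pigment gene levels was not tested.

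Other genes of the 2 lineages, taken from wider lists, showed the same split in part. Of 14 glial lineage genes that passed the limit in the WT layers, 9 were at least 2-fold higher in mesenchyme and 1 in ectoderm. Of all genes tested 12.1% and 6.88% were. The median log2 ratio of the 14 was 1.22. After the trend of all genes with transcript GC was subtracted, 7 of the 14 were higher and 1 lower, with a median of 1.02. Ngfr, the low-affinity neurotrophin receptor, had 1.81 TPM in WT ectoderm and 23.8 TPM in WT mesenchyme. Gap43, a protein of growing axons and their glia, was at 10.8 and 77.9 TPM, and Gfra3, a receptor of Schwann cell precursors and sensory neurons, at 0.25 and 3.91 TPM. Cdh19, a cadherin of the same precursors, was at 0.16 and 1.92 TPM. Ednrb, Itga4, Insc, Ttyh1 and L1cam completed the 9. Ttyh1 (0.94) and L1cam (0.855) were within 2-fold after the GC trend was subtracted. The 1 gene higher in ectoderm was Sox2, at 46.3 and 1.72 TPM, which is also a gene of oral and olfactory epithelium.

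Of 18 melanocyte lineage genes, 9 passed the limit in the WT layers, and the enzymes and pumps of the melanosome were mostly among those that did not. Tyr, the first enzyme of melanin synthesis, had 0.69 TPM in WT ectoderm and 0.20 TPM in WT mesenchyme, Mlana 1.67 and 0.15 TPM, and Tyrp1 0.02 and 0.01 TPM. Tyr and Mlana were higher in ectoderm like Dct and Pmel, and Tyrp1 was too low to order. Oca2 (0.08 and 0.09 TPM) was likewise too low to order. Gpr143, also low (0.07 and 0.22 TPM), had the higher value in mesenchyme, and Slc24a5, an ion exchanger of the melanosome, was nearly level at 10.1 and 9.60 TPM. By any amount, ectoderm had the higher WT value for 10 of the 18 genes and mesenchyme for 7. This tally takes every difference, also those of Tyrp1 and Oca2, whose values were too low to order. Rab38, which carries pigment enzymes to the melanosome and also acts in other epithelia, was at 53.3 and 2.95 TPM, and Mcoln3, an endosomal channel, at 12.6 and 2.74. At least 2-fold higher in mesenchyme were Cited1 (2.60 and 53.2 TPM), Pax3 (5.73 and 40.5) and Ednrb (2.46 and 11.4), a cofactor, a transcription factor and a receptor that other crest or mesenchymal cells also express. Of the 9 genes, 3 were thus at least 2-fold higher in mesenchyme and 2 in ectoderm, where 12.1% and 6.88% of all genes were. The median of the 9 was 0.03 and that of all genes 0.15.

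**Figure D2:**
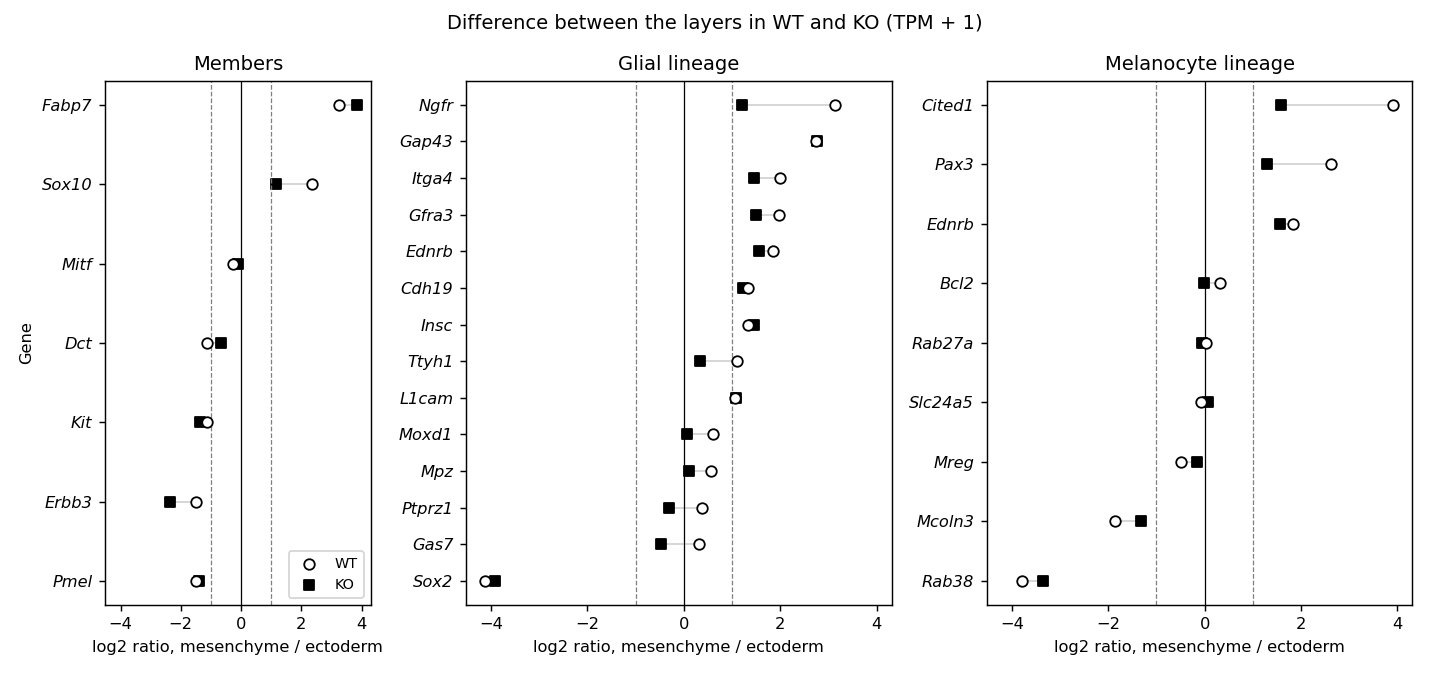
Log2 ratio of mesenchyme to ectoderm for the members, the glial lineage list and the melanocyte lineage list, in WT (open circles) and KO (filled squares), for genes averaging 1 TPM or more in WT tissue. Dashed lines mark 2-fold. Fabp7 and Sox10 lie to the right at 3.27 and 2.35 in WT, and Erbb3, Kit, Dct and Pmel to the left between -1.50 and -1.11.

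The ligands of these receptors were present in both layers. Kitl, the Kit ligand, had 16.5 and 16.1 TPM in WT and KO ectoderm and 4.83 and 6.15 TPM in WT and KO mesenchyme, so ligand and receptor had their higher level in the same layer. Edn3, which acts on Ednrb in melanoblasts, was at 10.2, 12.0, 13.8 and 12.4 TPM in that order, and Ednrb at 2.46, 3.70, 11.4 and 12.9. Nrg1, the ligand read by Erbb3, was low throughout, at 1.86, 2.39, 2.66 and 3.23 TPM. Erbb2, which pairs with Erbb3 because Erbb3 has little kinase activity of its own, was at 63.3, 65.0, 34.8 and 15.0 TPM. It exceeded Erbb3 in every group, by 1.52-fold in WT ectoderm and 2.45-fold in WT mesenchyme. Erbb4, the other neuregulin receptor, did not exceed 0.39 TPM.

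In KO ectoderm Sox10 and Fabp7 were higher than in WT, and Dct, Pmel and Kit slightly lower. Sox10 had a log2 ratio of 0.61 and Fabp7 of 0.59, and these were the 2 of 7 genes past 1.5-fold, where 4.92% of 13935 genes tested were. None was 1.5-fold lower, where 0.452% of all genes were. Fabp7 lay just past the limit of 0.585 on the log2 scale. Without the added 1 TPM the ratio was 1.83 for Sox10 and 1.68 for Fabp7. Dct (-0.22), Pmel (-0.15) and Kit (-0.15) were lower within 1.5-fold, and Erbb3 (0.03) and Mitf (0.01) were level. The ratio of Dct to Sox10 was 1.28 in WT and 0.554 in KO tissue of this layer. The median of the 7 was 0.01 and that of all genes 0.05. Markers of surface epithelium were mostly lower in KO ectoderm too. Of 8 such markers 7 had a ratio below 0, with a median of -0.25, and 1 was past 1.5-fold. Their sum was 2591 TPM in WT and 2022 TPM in KO ectoderm. The part of epithelial RNA in the lower values of Dct, Pmel and Kit was not tested.

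Markers of mesenchyme, endothelium and muscle were also higher in KO ectoderm, every one that passed the limit by at least 1.5-fold (10, 6 and 5 genes). The gain of Sox10 in KO ectoderm equalled 12.9% of its WT mesenchyme level less its WT ectoderm level, and that of Fabp7 5.85%. For the 10 mesenchyme markers this share had a median of 10.8% (6.36% to 14.9%), for 6 endothelial markers of 10.2% (9.04% to 12.9%), for 6 muscle markers of 14.8% (11.3% to 22.7%), for the 6 of 19 glial lineage genes whose WT mesenchyme level was 5-fold the ectoderm level or more of 11.6% (6.56% to 17.5%), and for the 4 of 12 neuron markers past that limit of 4.37% (0.40% to 13.1%). The part of mesenchyme RNA in the gain of Sox10 and Fabp7 was not tested. Base composition differed between the genes: the Sox10 transcript has 61.8% GC and that of Fabp7 42.6%. After the trend of all genes with transcript GC was subtracted, Sox10 was at 0.39, no longer past 1.5-fold, and Fabp7 at 0.59. After quantile normalization neither was past it, and of all genes 467 were higher and 131 lower by 1.5-fold, in place of 686 and 63.

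The other glial genes had the same direction in KO ectoderm. Of 13 that passed the limit 12 had a ratio above 0, and the median was 0.39, where that of all genes was 0.05. At least 1.5-fold higher were 4, where 4.92% of all genes were. None was as far below WT, where 0.452% of all genes were. The 4 were Ngfr (1.81 TPM in WT and 5.66 in KO), Ttyh1 (2.35 and 4.67), Ptprz1 (3.07 and 5.22) and Itga4 (2.09 and 3.67). Of 10 melanocyte lineage genes, Cited1 (2.60 and 9.51 TPM) and Pax3 (5.73 and 11.9) were higher and none lower, and the median was -0.01. Rab38 had 53.3 TPM in WT and 36.4 TPM in KO, a log2 ratio of -0.54, within 1.5-fold. None of 4 neuregulin and ErbB genes and 1 of 7 Kit and endothelin genes, the receptor Ednra (2.70 and 7.21 TPM), differed by 1.5-fold.

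In KO mesenchyme Fabp7 and Erbb3 went in opposite directions. The log2 ratio of Fabp7 was 1.18, from 36.9 to 84.9 TPM, and 56 of 14233 genes tested had a larger one. It was the 1 gene of 6 at least 1.5-fold higher, where 2.33% of all genes were. Erbb3, with a ratio of -0.85, was the 1 gene at least 1.5-fold lower, where 13.4% of all genes were. Sox10 lay just within the limit, at -0.583, so that Sox10 and Erbb3 had lower values and Fabp7 a higher value in the same tissue. Kit was at -0.41, Pmel at -0.05 and Mitf at 0.19. Dct and Foxd3 did not pass the limit of 1 TPM. The median of the 6 was -0.23 and that of all genes -0.12.

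Transcript GC bore on these values unequally. After its trend was subtracted the ratio of Fabp7 was 1.06 and that of Erbb3 -0.61, both still past 1.5-fold, while Sox10 was at -0.02. Pmel turned to 0.30. With the trend subtracted the count of all genes at least 1.5-fold lower in KO mesenchyme went from 1902 to 320, and that of genes higher from 332 to 633. Scaling by median ratios gave 1119 lower and 577 higher genes, and quantile normalization 968 and 639.

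**Figure D3:**
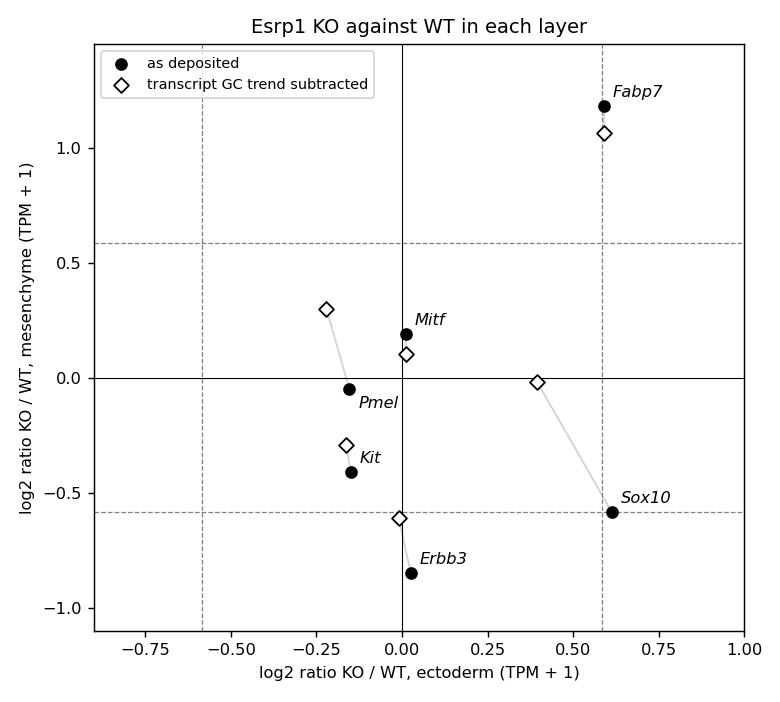
Log2 ratio of KO to WT in ectoderm (x axis) and mesenchyme (y axis) for the 6 genes that passed the limit of 1 TPM in both layers, as deposited (filled circles) and after subtraction of the transcript GC trend (open diamonds). Dashed lines mark 1.5-fold. Fabp7 lies alone at the top, Erbb3 at the bottom, and Sox10 moves from 0.61 and -0.58 to 0.39 and -0.02.

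Neuron markers were also higher in KO mesenchyme, while the other glial genes as a list were not. Of 12 neuron markers 6 were past 1.5-fold upwards and 0 downwards, the median was 0.54, and the sum was 184 TPM for WT and 279 TPM for KO. Stmn2, a protein of growing neurites, was at 44.8 and 77.0 TPM. Of 14 glial lineage genes none was 1.5-fold higher and 1, Ngfr, was lower (23.8 and 14.3 TPM). The median was 0.03. After the GC trend was subtracted 2 were higher, Insc and Gap43, both at 0.73, and none lower. Gap43 had 77.9 TPM in WT and 115 TPM in KO. Fabp7 is also a gene of radial glia in the brain. The 6 other radial glia markers added to 50.1 and 49.3 TPM in WT and KO mesenchyme, and most of this came from Nes and Slc1a3. None of the 3 that passed the limit differed by 1.5-fold as deposited. Pax6 was at 0.84 and 1.62 TPM, a log2 ratio of 0.51 and of 0.66 after the GC trend was subtracted, and Hes5, below the limit, at 0.33 and 0.67 TPM. The part of neural tissue in the Fabp7 value was not tested.

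Erbb2 was lower together with Erbb3 in KO mesenchyme, from 34.8 to 15.0 TPM, a log2 ratio of -1.16 and of -0.69 after the GC trend was subtracted. Both receptors had their higher level in ectoderm. The 8 epithelial markers added to 15.3 TPM in WT mesenchyme and 15.4 in KO, with single markers higher (Perp, 1.23 and 1.64) or lower (Trp63, 1.55 and 1.33). The part of epithelial RNA in the values of Erbb3 and Erbb2 was not tested. Erbb2 was the only 1 of 4 measured ErbB and neuregulin genes past 1.5-fold. Fabp5 and Fabp3, relatives of Fabp7, were at 247 and 4.77 TPM in WT mesenchyme and 297 and 6.61 in KO, both within 1.5-fold. After the GC trend was subtracted Fabp3 was at 0.75, past 1.5-fold, and Fabp5 at 0.26. Tfe3, a relative of Mitf, was at 27.7 and 15.0 TPM, a ratio of -0.84 and of -0.37 after the GC trend was subtracted. Of the melanocyte lineage genes Cited1 was lower (53.2 and 30.7 TPM), at -0.78, and at -0.20 after that subtraction. Of the Kit and endothelin genes Ece1, the enzyme that activates endothelins, was lower (40.8 and 23.6 TPM), at -0.76 and at -0.38 after it.

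**Figure D4:**
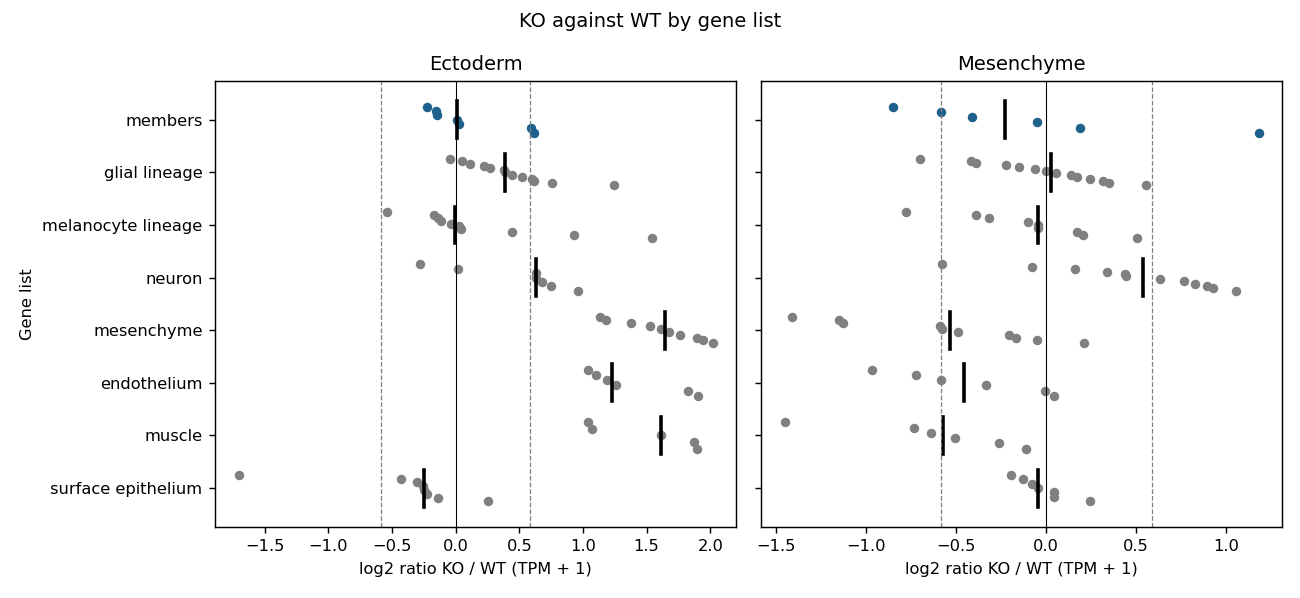
Log2 ratio of KO to WT in ectoderm (left) and mesenchyme (right) for the members (blue), 2 lineage lists and 5 lists of markers of other cells (grey), each point 1 gene and each bar a list's median. In ectoderm the mesenchyme, endothelium and muscle markers lie past 1.5-fold (dashed line), and in mesenchyme the neuron markers have the highest median, at 0.54.

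The 2 layers of KO tissue were less far apart than those of WT for Sox10 and further apart for Fabp7 and Erbb3. Between the KO layers the log2 ratio of mesenchyme to ectoderm was 1.15 for Sox10, 3.86 for Fabp7, -2.37 for Erbb3, -1.38 for Kit and -1.39 for Pmel. At least 2-fold higher in mesenchyme were 2 of 7 genes, where 6.88% of all genes were, and at least 2-fold lower 3, where 9.06% were. Dct, at -0.66, was not among these in KO tissue. The KO effect in ectoderm less the KO effect in mesenchyme was at least 2-fold positive for 1 of 7 genes, Sox10 at 1.20, where 7.34% of all genes were, and it was 0.38 after the GC trend was subtracted. It was 0.87 for Erbb3 and -0.59 for Fabp7. None was 2-fold negative, where 0.593% of all genes were. Among all genes 1052 were positive and 85 negative by this measure, and 479 and 179 after quantile normalization. These comparisons use the same 4 values per gene and are not independent, and no difference between the layers could be tested.

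Many genes outside the 8 had profiles over the 4 groups nearer to those of Sox10 and Dct than any other member had. Likeness was taken, for genes averaging 1 TPM or more, as the distance between profiles of log2 TPM plus 1, each centred on its own mean, over 4 values. The members and predicted gene models were left out of this order by rule, and the distances of members were set beside it. The 5 genes nearest to Sox10 were Gamt, Abcg4, Thsd1, Tle2 and Shd, at distances from 0.09 to 0.11. Foxd3, set beside them although it averaged less than 1 TPM, was at 1.11, with 11.7% of 13191 genes nearer, and Mitf, Fabp7, Dct, Kit, Pmel and Erbb3 followed at 2.05 to 3.71. Nearest to Dct were Cndp1, Nipal4, Fabp5, Mrm1 and Stk26, at 0.03 to 0.08. Kit (0.58) and Pmel (0.59) were nearer to Dct than the remaining members, with 8.22% and 8.8% of genes nearer still. With 4 values such an order describes the groups and says nothing of the cells in which a gene is used.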

How the data were processed

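RNA of facial ectoderm and mesenchyme from WT and Esrp1 KO embryos was sequenced from 16 libraries. The authors deposited TPM values per gene symbol, 1 column per group. Per the submitters' processing notes, STAR 2.5.2a, kallisto 0.43.0 and mm10 were used. For the tool behind the TPM, the annotation, and how 4 libraries became 1 value: not given in the sources used here. A pair of index barcodes was listed for 1 WT ectoderm, 2 KO ectoderm, 0 WT mesenchyme and 2 KO mesenchyme libraries, so the kind of index is partly confounded with the groups.

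Of 30391 rows, a repeated symbol kept its row of highest sum. Log2 ratios used TPM plus 1 and genes averaging 1 TPM or more. Counts used 1.5-fold for KO against WT and 2-fold otherwise. No test was possible. Transcript GC came from the longest transcript of GENCODE M21 (99.0% of symbols matched), and its trend was fitted by lowess (fraction 0.3, genes at 5 TPM or more, statsmodels 0.14.6). The calculation was checked on simulated data without noise, with changes larger than the fold limits and genes well above 1 TPM. That check cannot speak to genes near 1 TPM or ratios near the limits. In the glial lineage list 1 gene is not reported here. The members and lists were chosen with earlier results of these data known. All members are named, from each list the genes past the fold size or otherwise the most abundant, other genes by choice after their values were seen, and 5 genes nearest in profile to Sox10 and to Dct.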

Additional observations from a re-analysis of the deposited data

How the results depend on the processing

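Each count of members was recomputed under 8 alternatives, and 66 of 80 counts stayed within 1.5 times. Summing the rows of a repeated symbol could not move any count, because each member has 1 row. Dropping the limit of 1 TPM could only add Foxd3 and Dct, and it moved no count. The agreement under these settings is therefore no sign of stability. Members higher in KO ectoderm, 2 as reported, were 0 with 5 TPM added in place of 1, 0 after quantile normalization, 1 (Sox10) after scaling by median ratios, 1 (Fabp7) after the GC trend was subtracted and 0 at 2-fold. Members lower in KO mesenchyme, 1 as reported, were 2 (Sox10 and Erbb3) with 0.1 TPM added and 0 at 2-fold. With 5 TPM added, members lower in WT mesenchyme than in ectoderm were 1 (Erbb3) in place of 4, and members higher in KO mesenchyme than in KO ectoderm 1 (Fabp7) in place of 2. The difference of the KO effects past 2-fold in the positive direction, 1 as reported, was 0 with 5 TPM added, 0 after quantile normalization and 0 after GC subtraction. At 1.5-fold it was 2, with 1 in the negative direction. The cause of the changes by scaling and GC was not tested. No ratio of a member that was counted changed sign. In KO mesenchyme Fabp7 ranged from 1.06 to 1.38 and Erbb3 from -0.92 to -0.61 over the alternatives. Quantile normalization moved the median of all genes in KO mesenchyme from -0.12 to 0.02.

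No paired analysis was possible because the table holds 1 value per group. Leaving out a replicate was not run for the same reason. TPM keep no depth, so the precision of genes near 1 TPM, such as Dct, Mitf and Foxd3, is unknown.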

Other observations

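Among transcription factors of the neural crest outside the members, 10 of 14 had a log2 ratio above 0 in KO ectoderm and 12 of 15 below 0 in KO mesenchyme. The list's medians were 0.41 and -0.39 (0.32 and -0.06 after the GC trend was subtracted), and those of all genes 0.05 and -0.12. Of 14 that passed the limit in ectoderm 5 were at least 1.5-fold higher (Pax3, Pax7, Twist1, Ets1 and Zeb2), and none lower. Of all genes 4.92% were that much higher. These 5 had WT mesenchyme-to-ectoderm log2 ratios of 2.63, 1.93, 4.46, 3.27 and 3.65, and Twist1 is also on the mesenchyme marker list. For 6 factors the WT mesenchyme level was at least 5-fold the ectoderm level. Their gain in KO ectoderm had a median of 9.1% (5.94% to 17.6%) of the difference between these levels. The mesenchyme markers had a median of 10.8%. The part of mesenchyme RNA in these gains was not tested. Pax7, a factor of frontonasal crest and muscle progenitors, had 2.95 TPM in WT and 9.08 TPM in KO ectoderm. Of 15 in mesenchyme 4 were lower (Sox8, Sox9, Pax7 and Twist1), where 13.4% of all genes were, and 1 higher, and the 1 lower gene after the GC trend was subtracted was Sox9. Sox8 and Sox9 belong with Sox10 to the SoxE group. Sox8 was at 9.18 TPM in WT mesenchyme and 5.33 in KO, and Sox9 at 24.5 and 12.3, so that all 3 SoxE genes had the lower deposited value in KO mesenchyme, at -0.33 for Sox8, -0.78 for Sox9 and -0.02 for Sox10 after the subtraction. The higher gene was Sox5, a partner of SoxE factors, at 8.86 and 16.2 TPM, a log2 ratio of 0.80 and of 0.77 after the subtraction. Tfap2a, a factor of both crest and surface ectoderm, was at 73.4 and 59.8 TPM in WT and KO ectoderm.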
